A study of Mus musculus with 2 samples.

Results

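The cycling urothelium of the newborn mouse ureter was described from single-nucleus RNA sequencing as the epithelial nuclei that carried transcripts of the cell division cycle. A nucleus was taken as epithelial when at least 3 of 12 epithelial genes (Cdh1, Epcam, Krt18, Grhl2, Elf3, Esrp1, Macc1, Ehf, Myo5b, Cldn4, Cldn7 and Rab25) had a unique molecular identifier (UMI, 1 counted RNA molecule) and at most 1 of 7 genes of other cells did (Myh11, Myocd, Col1a2, Col3a1, Pdgfra, Ptprb and Pecam1). It was taken as cycling when at least 2 of 5 proliferation genes (Mki67, Top2a, Cenpf, Kif11 and Aspm) had a UMI. The rule found 308 cycling nuclei among 3726 epithelial nuclei and 14380 nuclei kept in all, with 105 of them in the DNp63cKO library and 203 in the control library. The nuclei were thus selected on the measured UMIs of these genes, so their levels are given as a description only. The split into cycling and non-cycling nuclei is a range of a count and not a cell type.

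The urothelium is the stratified lining of the urinary tract. Its basal cells touch the basement membrane and carry keratins 5 and 14, integrins of the hemidesmosome and p63, a transcription factor whose ΔN form dominates in basal epithelia. Towards the lumen the cells switch to uroplakins, membrane proteins that are assembled into the plaques of the superficial (umbrella) cells, and stratified epithelia are in general renewed from the basal side. A nucleus that divides passes from DNA replication to mitosis, and the 5 genes of the rule mark mainly the later phases.

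The DNp63cKO library came from flash-frozen ureters of 14 mice of the genotype Pax2-cre/+;DNp63fl/fl;R26mTmG/+, pooled at postnatal day 0. In these mice Cre under Pax2 control acts in the Wolffian duct lineage, from which the ureteric epithelium arises, on the floxed DNp63 alleles, and R26mTmG is a membrane reporter of recombination. The control library came from ureters of 13 mice of the same age, pooled, whose genotype is labelled only wt, so that Pax2-cre and R26mTmG could be absent from the control group as well as the floxed DNp63 alleles. Nuclei were captured in the microwells of the Singleron GEXSCOPE platform. Each group is 1 library, so no test between the groups was possible, and a difference between genotypes cannot be told apart from a difference between 2 libraries. The 95% intervals given here are exact (Poisson for levels, binomial for shares and ratios) and cover counting error only.

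The 2 libraries held 5528 nuclei with 9859451 UMIs (DNp63cKO) and 9062 nuclei with 16063644 UMIs (control). Cycling urothelial nuclei had a median of 1670 UMIs in the DNp63cKO library and 1533 in the control library, against 1357 and 1359 in the non-cycling epithelial nuclei. They summed to 195810 and 420109 UMIs, and the 899 and 2519 non-cycling nuclei to 1393600 and 4256007. The 2 libraries shared 58 barcodes, of which 0 belonged to cycling urothelium. Uroplakin transcripts were also counted in nuclei of other cells. They made up 1840 and 1650 CPM (UMIs of a gene per 1000000 UMIs of the summed nuclei) of non-cycling mesenchymal nuclei, a cell type that should lack them, and whether free RNA or mixed nuclei brought them was not tested. The limit on genes of other cells left out 63.3% of the nuclei with 3 or more epithelial markers in the DNp63cKO library and 43.7% in the control library. Of the nuclei left out 18.2% and 15.4% carried 2 or more cycling markers. These were 315 and 326 nuclei, more than the 105 and 203 cycling nuclei kept. The nuclei left out were deeper, with medians of 2069 and 2240.5 UMIs against 1393.5 and 1369 in the epithelial nuclei kept.

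Urothelial genes outside the rule were higher in the cycling nuclei than in mesenchymal nuclei. Krt5 had 455 CPM against 20.4 CPM in the DNp63cKO library and 190 against 45.9 CPM in the control library, Upk1b 2691 against 693 CPM and 4051 against 676 CPM, and Krt20 260 against 46.3 CPM and 521 against 90.9 CPM. Genes of smooth muscle summed to 1032 CPM in the cycling nuclei of the DNp63cKO library and 517 CPM in those of the control library, against 9379 and 11318 CPM in mesenchymal nuclei. Genes of fibroblasts summed to 705 and 417 CPM, against 7797 and 8897 CPM in mesenchymal nuclei, with 2 of 10 listed genes at 0 in the cycling nuclei of each library. Markers of endothelium (46.0 and 54.7 CPM), macrophages (51.1 and 11.9 CPM), nephron (35.7 and 19.0 CPM) and neurons (10.2 and 4.76 CPM) were lower still. Glial genes summed to 230 and 267 CPM, more than in mesenchymal nuclei (93.3 and 81.9 CPM). These sums were close to the 230 and 252 CPM of non-cycling epithelial nuclei. Of 7 listed glial genes, 4 and 5 were at 0 in the cycling nuclei. The part of other cells' RNA in the differences below was not tested, beyond a subtraction of free RNA run as a processing alternative. That subtraction took 26.4% (DNp63cKO) and 21.4% (control) of the RNA as free, estimated from uroplakin UMIs in mesenchymal nuclei.

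Trp63, the targeted gene, had 34 UMIs (174 CPM) in the cycling nuclei of the DNp63cKO library and 76 UMIs (181 CPM) in those of the control library. In non-cycling nuclei it had 141 and 203 CPM. The counts are per gene and do not separate the ΔN transcripts or the deleted exons from the rest, so they do not check the genotype.

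The cycling share was higher in the DNp63cKO library by the rule as given, but not by every way of counting it. In the DNp63cKO library 105 of 1004 epithelial nuclei were cycling, 10.5% (8.63% to 12.5%, exact Clopper-Pearson interval), and in the control library 203 of 2722, 7.46% (6.5% to 8.51%). With every nucleus thinned to 700 UMIs the shares were 5.45% (4.10% to 7.09%) and 3.94% (3.20% to 4.78%), with intervals that overlap. The order of the libraries was the other way round among nuclei with a Y-linked and no Xist UMI, where 16 of 154 (10.4%) and 38 of 309 (12.3%) were cycling. Among mesenchymal nuclei 7.08% and 7.97% met the same cycling rule, and 2.31% and 4.55% after thinning. Just outside the rule lay 178 and 453 epithelial nuclei with 1 cycling marker, and just inside it 61 and 111 with exactly 2.

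Within the DNp63cKO library, basal genes were higher and uroplakin genes lower in cycling than in non-cycling urothelium. Basal genes (a list of 16) summed to 3580 CPM in cycling and 2068 CPM in non-cycling nuclei, a log2 ratio of 0.79 (0.67 to 0.91). Uroplakin genes (a list of 6) summed to 6430 and 11653 CPM, a log2 ratio of −0.86 (−0.94 to −0.77). In the control library the sums were closer: 2733 and 2518 CPM for basal genes, a log2 ratio of 0.12 (0.03 to 0.21), and 9317 and 10556 CPM for uroplakin genes, −0.18 (−0.23 to −0.13). The uroplakin difference of the control library was −0.54 without the deepest 5% of cycling nuclei and −0.46 with members kept and values thinned to 700 UMIs. It was −0.80 when the rule was also applied anew to the thinned nuclei. Among mesenchymal nuclei, the cycling ones had log2 ratios of −0.18 and −0.22 for the same genes.

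**Figure D1:**
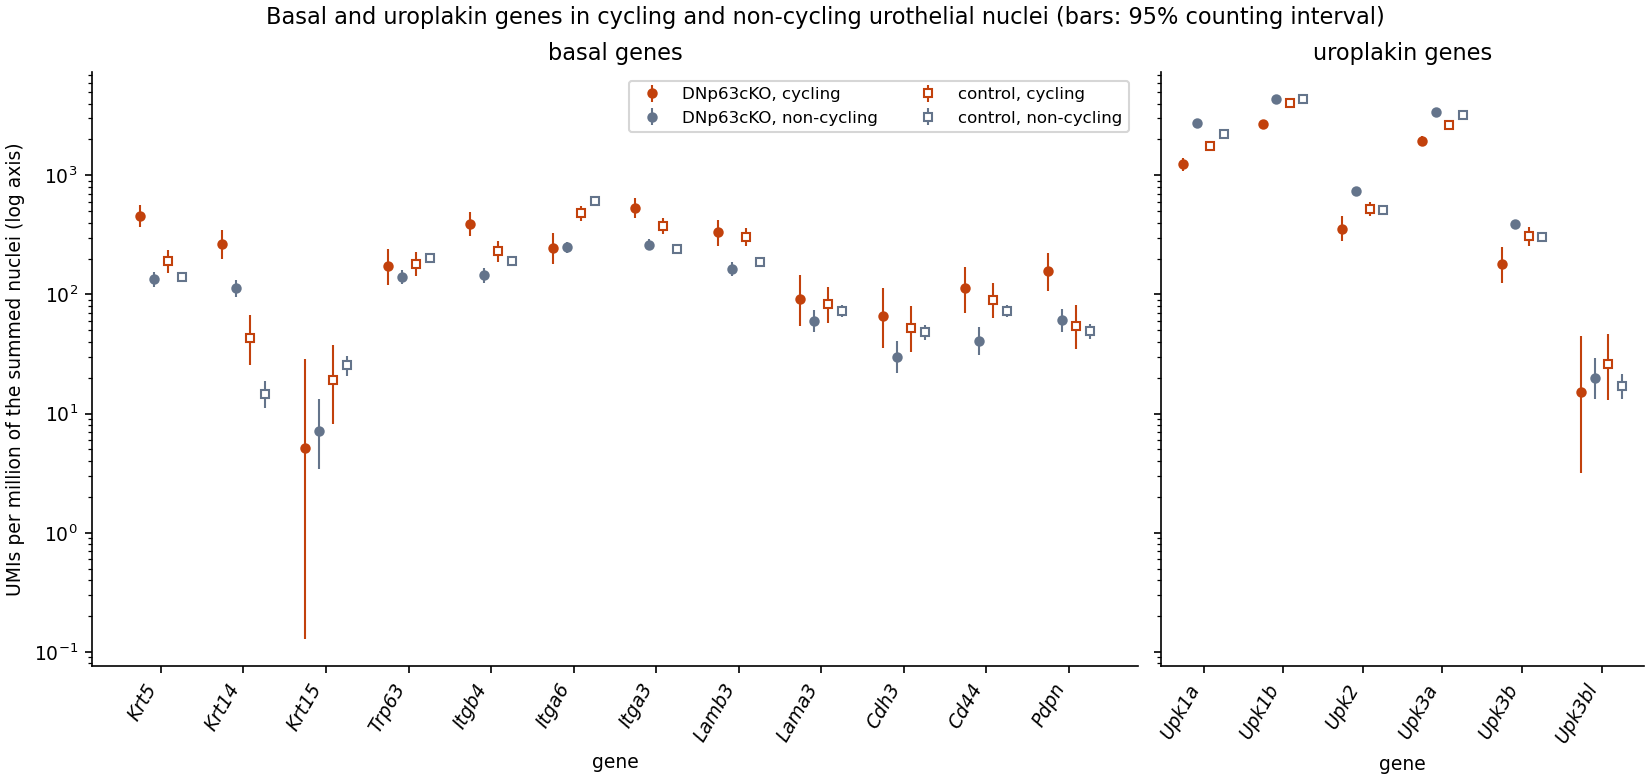
Levels of basal and uroplakin genes described in the text, in CPM on a log axis, in cycling and non-cycling urothelial nuclei of each library; each point is the sum over all nuclei of a class, and the bars are exact 95% Poisson intervals of counting error. Krt5 sits at 455 CPM in the cycling nuclei of the DNp63cKO library, above the 135 to 190 CPM of the other 3 sums.

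Among basal genes of the DNp63cKO library, 8 of the 13 with at least 20 UMIs were past 1.5-fold higher in cycling nuclei and 0 past 1.5-fold lower. Their median log2 ratio was 1.01. Over all 10330 genes with that count, 15.4% were past 1.5-fold higher and 18.5% past 1.5-fold lower, with a median of −0.01. Ratios of single genes, and medians over them, are on a log2 scale of CPM plus 5, and ratios of summed lists on CPM alone. Control nuclei had 3 of 15 basal genes past 1.5-fold higher and 0 lower. Their median was 0.14, against 8.14% of all 12500 genes higher and 10.8% lower and a median of −0.03.

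Among the basal genes tested, Krt5 had the highest ratio in the DNp63cKO library and Krt14 in the control library. Krt5, the keratin that marks basal urothelium, had 455 CPM in cycling nuclei of the DNp63cKO library (89 UMIs in 42 nuclei) and 135 CPM in non-cycling nuclei, and 190 CPM (80 UMIs in 44 nuclei) and 141 CPM in the control library. The log2 ratio of cycling to non-cycling was 1.72 in the DNp63cKO library and 0.43 in the control library. The high value was thus that of the cycling DNp63cKO nuclei, with the other 3 sums close together. Krt14, the partner of keratin 5 in basal cells, had 266 CPM in cycling and 113 CPM in non-cycling nuclei of the DNp63cKO library, and 42.8 and 14.6 CPM in the control library. Its cycling to non-cycling ratio was alike in the libraries at 1.20 and 1.29, although the control value stands on 18 UMIs in 10 nuclei. Krt15, another basal keratin, was low, with 5.11 CPM (1 UMI) in cycling nuclei of the DNp63cKO library and 19.0 CPM in those of the control library.

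Adhesion genes of the basal surface varied among themselves. Itgb4, which encodes the β4 integrin of hemidesmosomes, had 393 and 145 CPM in cycling and non-cycling nuclei of the DNp63cKO library, and 231 and 191 CPM in the control library, for log2 ratios of 1.41 and 0.27. Itga6, which encodes its α6 partner, had 245 and 248 CPM in the DNp63cKO library and 481 and 605 CPM in the control library, with log2 ratios of −0.02 and −0.33. So the integrin subunits that pair with each other did not move alike in the DNp63cKO nuclei. Itga3, an integrin subunit that binds laminin 332, was higher in the cycling nuclei of both libraries, at 531 against 262 CPM and 376 against 240 CPM. Lamb3, which encodes the β3 chain of laminin 332, was likewise higher in both, at 332 against 164 CPM and 305 against 189 CPM. Lama3, which encodes the α3 chain, had a log2 ratio of 0.57 in the DNp63cKO library and 0.18 in the control library.

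Surface proteins of basal cells were higher mainly in the DNp63cKO sums. Cdh3, which encodes P-cadherin, had 66.4 CPM in cycling and 30.1 CPM in non-cycling DNp63cKO nuclei, and 52.4 and 48.2 CPM in the control library. Cd44, a hyaluronan receptor, had 112 and 40.9 CPM in the DNp63cKO library and 90.5 and 72.8 CPM in the control library, but its DNp63cKO log2 ratio of 1.35 was −0.012 with nuclei thinned to 700 UMIs. Pdpn, which encodes podoplanin, had 158 and 61.0 CPM against 54.7 and 49.1 CPM, and its DNp63cKO ratio of 1.31 was −0.26 when no marker of other cells was allowed. Trp63 itself had log2 ratios of 0.29 and −0.16, with intervals that both include 0 (−0.27 to 0.83, and −0.52 to 0.17). Col17a1 and Ngfr were low, at 5.11 CPM or less in the cycling nuclei of both libraries.

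Uroplakin genes of the DNp63cKO library were lower in cycling nuclei, with a median log2 ratio of −0.92. Of 6 genes 5 were past 1.5-fold lower, beside 18.5% of all genes. Upk1a had 1241 CPM in cycling and 2762 CPM in non-cycling nuclei, a log2 ratio of −1.15. Its relative Upk1b, which with Upk1a makes up the tetraspanin uroplakins, had 2691 and 4348 CPM, −0.69. Upk2, a partner of Upk1a in the plaque, had 357 and 743 CPM, −1.04. Upk3a, a partner of Upk1b, had 1946 and 3388 CPM, −0.80, and Upk3b had 179 and 391 CPM, −1.11. All 5 were thus lower together. The sixth, Upk3bl, was low in all sums, at 15.3 and 20.1 CPM.

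In the control library 0 of 6 uroplakin genes were past 1.5-fold in either direction on summed UMIs, with a median log2 ratio of −0.05. Over all genes 8.14% were past 1.5-fold higher and 10.8% lower. Upk1a had 1773 and 2209 CPM, Upk1b 4051 and 4333 CPM, and Upk3a 2640 and 3181 CPM in cycling and non-cycling nuclei. Upk2 (519 and 509 CPM) and Upk3b (307 and 306 CPM) were level.

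Genes of superficial cells outside the uroplakins were mixed. Of 12 tested in the DNp63cKO library, 5 were past 1.5-fold lower in cycling nuclei and 1 higher, beside 18.5% and 15.4% of all genes. The median log2 ratio was −0.27. Snx31, a sorting nexin that binds uroplakins, had 679 and 1536 CPM in cycling and non-cycling nuclei, a log2 ratio of −1.17. Grhl3, a transcription factor of umbrella cell differentiation, had a log2 ratio of −1.09, Rab27b, a GTPase of uroplakin vesicle traffic, −0.75, and Pparg, a nuclear receptor of urothelial differentiation, −0.72. Psca, a surface antigen of the upper layers, had −0.67. Prom1 was the higher one (0.71) and stands on 5 UMIs in cycling nuclei. Sprr1a, a cornified envelope precursor, was abundant in all sums, at 8289 and 9229 CPM in the DNp63cKO library and 5713 and 5695 CPM in the control library. Krt20, the umbrella cell keratin, had log2 ratios of −0.21 and 0.28. Among control nuclei 0 of 12 of these genes were past 1.5-fold, with a median of −0.06, beside 8.14% of all genes higher and 10.8% lower.

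Depth mattered for the uroplakin comparison, and nuclei were therefore split by their UMIs, a split chosen after seeing the data. For DNp63cKO the uroplakin level of cycling nuclei lay below that of non-cycling nuclei at every depth. It was 3978 against 5466 CPM from 500 UMIs to under 1000, 5983 against 10550 CPM from 1000 to under 2000, 5818 against 15285 CPM from 2000 to under 4000, and 11658 against 13977 CPM at 4000 and above. The control library gave the same order in its 3 shallower ranges: 2943 against 4830 CPM, 4150 against 7268 CPM and 7512 against 12897 CPM, for log2 ratios of −0.71, −0.81 and −0.78. At 4000 UMIs and above the control levels were 18241 and 18739 CPM, a log2 ratio of −0.04 (−0.10 to 0.03). The 22 control cycling nuclei of that range are 10.8% of the cycling nuclei and hold 57.6% of their uroplakin UMIs. In the DNp63cKO library 4 nuclei lay in that range and held 19.9%.

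**Figure D2:**
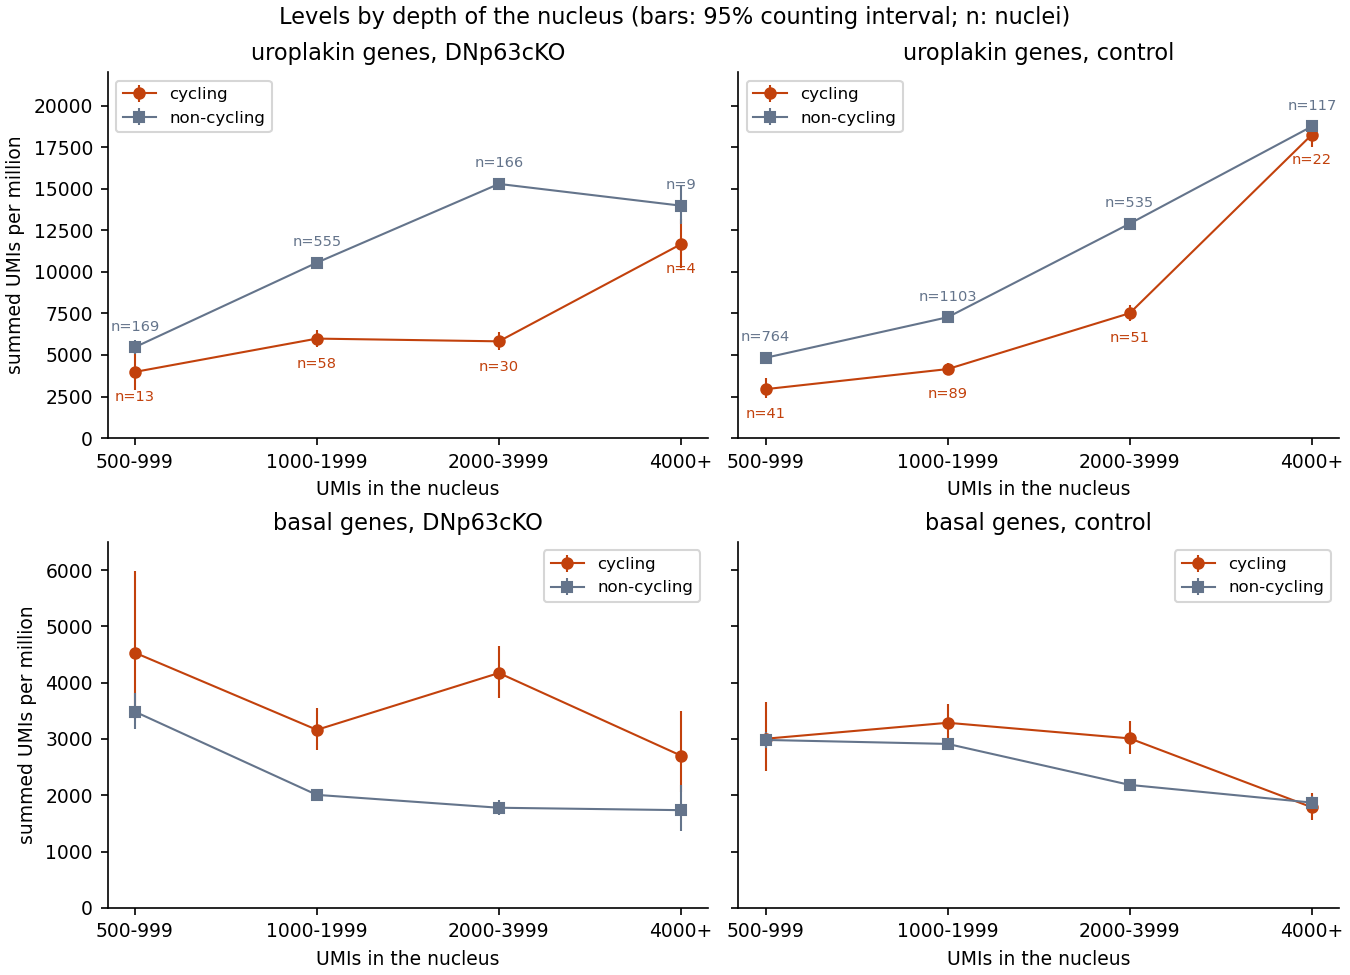
Levels of the basal and uroplakin lists, in CPM, in cycling and non-cycling urothelial nuclei split by UMIs per nucleus, for each library; the bars are exact 95% Poisson intervals. The uroplakin level of cycling nuclei lies below that of non-cycling nuclei in every range, by least at 4000 UMIs and above in the control library, where the levels are 18241 and 18739 and the interval of their ratio includes 0.

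Basal levels split the same way kept their order in the DNp63cKO library. They were 4533 against 3486 CPM, 3163 against 2007 CPM, 4173 against 1778 CPM and 2705 against 1736 CPM from the shallowest to the deepest range. The shallowest difference had a log2 ratio of 0.38 (−0.08 to 0.81), within counting error of 0. For control nuclei the log2 ratios were 0.01, 0.18, 0.46 and −0.07, so that only the range from 2000 to under 4000 UMIs stood well above 0 (3011 against 2184 CPM).

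Detection per nucleus was then compared at equal depth. After thinning to 700 UMIs, 102 cycling and 852 non-cycling nuclei remained in the DNp63cKO library and 194 and 2270 in the control library. Krt5 had a UMI in 24 of 102 cycling nuclei (23.5%) and in 7.63% of non-cycling nuclei of the DNp63cKO library, against 1.22% of mesenchymal nuclei. Among control nuclei it had one in 17 of 194 (8.76%) and in 8.11%, against 3.03% of mesenchymal nuclei. Krt14 was found in 14.7% and 6.10% in the DNp63cKO library and 3.61% and 1.15% in the control library, against 1.94% and 0% (0 of 725, which allows up to 0.414%) of mesenchymal nuclei. Itgb4 was found in 22.5% and 8.80%, and in 13.4% and 13.8%. Itga3 was close in DNp63cKO nuclei (16.7% and 15.4%), unlike its summed level, and was found in 26.3% and 15.9% of control nuclei. Unthinned, Krt5 had a UMI in 40.0% and 12.2% of nuclei in the DNp63cKO library and 21.7% and 13.7% in the control library.

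At equal depth Upk1a, Upk1b and Upk3a were found in a smaller share of cycling than of non-cycling nuclei in both libraries. Upk1a had a UMI in 42.2% of cycling and 67.3% of non-cycling nuclei of the DNp63cKO library, and in 36.6% and 53.1% in the control library, with 24.5% and 20.1% of mesenchymal nuclei of the 2 libraries. Upk3a was found in 53.9% and 74.2%, and in 55.7% and 67.7%, with 30.7% and 28.0% of mesenchymal nuclei. Upk1b was found in 65.7% and 83.1%, and in 69.1% and 78.5%, with 35.8% and 34.1% of mesenchymal nuclei. Upk2 differed in the DNp63cKO library (18.6% and 31.9%) and was close in the control library (18.6% and 20.6%).

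**Figure D3:**
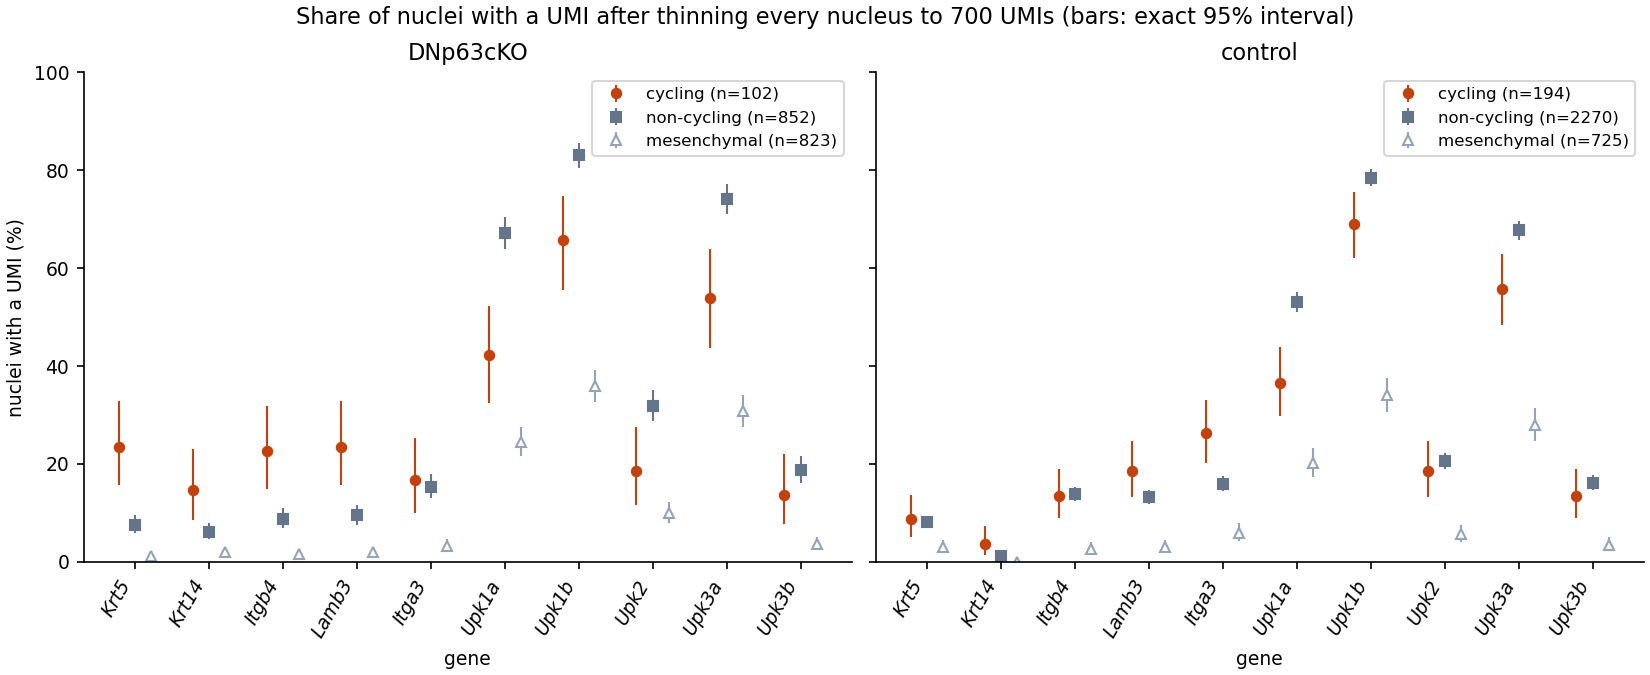
Share of nuclei with a UMI of each gene, in percent, after thinning every nucleus to 700 UMIs, in cycling, non-cycling and mesenchymal nuclei of each library; the bars are exact 95% Clopper-Pearson intervals. Krt5 stands at 23.5% in cycling DNp63cKO nuclei and at 8.76% in cycling control nuclei, and Upk1a at 42.2% in cycling and 67.3% in non-cycling DNp63cKO nuclei and 36.6% and 53.1% in control nuclei.

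Basal and uroplakin transcripts were also counted together in the same nucleus. At 700 UMIs, 70.6% of cycling nuclei in the DNp63cKO library and 70.6% in the control library had a UMI of both lists, against 58.9% and 73.0% of non-cycling nuclei. Uroplakin UMIs without a basal UMI were found in 18.6% and 19.1% of cycling nuclei, against 36.5% and 20.7% of non-cycling nuclei. Krt5 or Krt14 together with a uroplakin was found in 24.5% of cycling DNp63cKO nuclei and 9.86% of non-cycling ones, and in 10.8% and 7.53% in the control library. Mesenchymal nuclei gave 26.2% and 30.8% for both lists together, 41.7% and 32.3% for uroplakin without basal, and 1.94% and 2.34% for Krt5 or Krt14 with a uroplakin.

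The balance of the lists was then taken within each nucleus, as the basal share of its basal and uroplakin UMIs, for nuclei with at least 5 of them. The DNp63cKO library had a median share of 46.4% in 100 cycling nuclei and 11.6% in 835 non-cycling nuclei, with quartiles of 15.7% to 66.1% and 4.33% to 36.4%. Control nuclei had a median of 42.9% in 174 cycling nuclei and 23.1% in 2157 non-cycling nuclei, with quartiles of 13.9% to 60% and 10.3% to 50%. The typical cycling nucleus was thus close in the libraries by this measure, and the distributions overlapped widely. Basal UMIs were the majority in 43.0% and 17.5% of cycling and non-cycling nuclei of the DNp63cKO library and in 33.9% and 22.3% in the control library. Thinned to 700 UMIs the medians were 40.0% and 9.09%, and 33.3% and 17.6%.

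**Figure D4:**
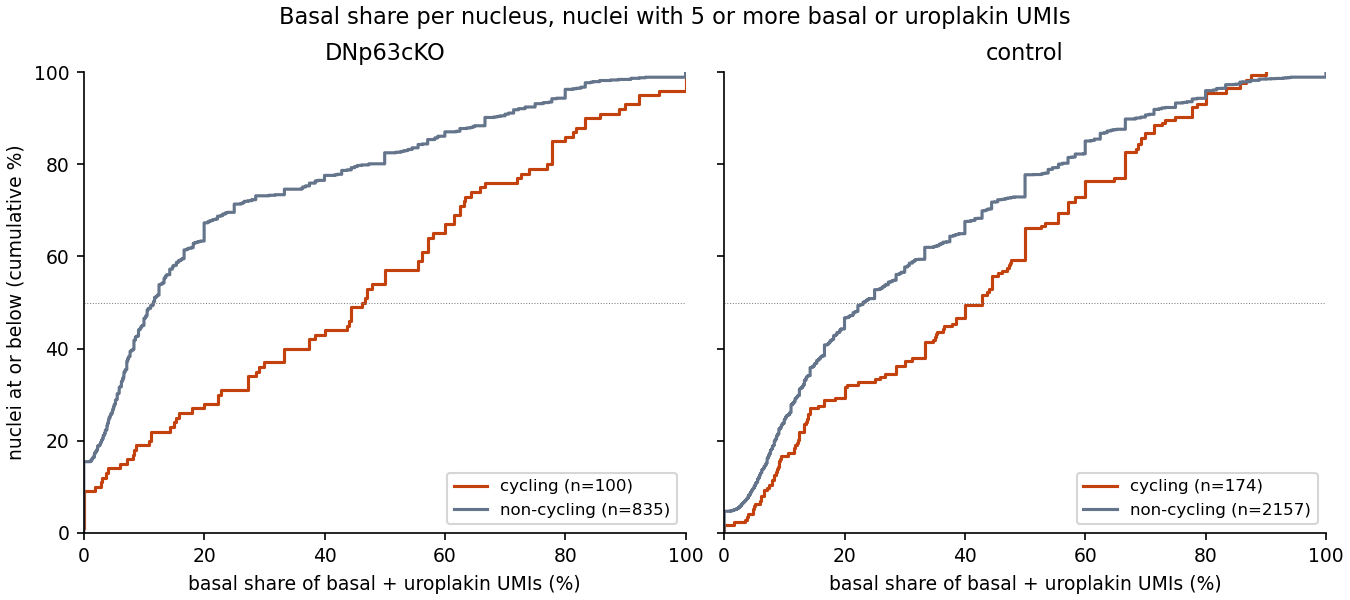
Cumulative share of nuclei, in percent, against the basal share of a nucleus's basal and uroplakin UMIs, in percent, for cycling and non-cycling urothelial nuclei with at least 5 such UMIs in each library. The median lies at 46.4% in cycling and 11.6% in non-cycling DNp63cKO nuclei, and at 42.9% and 23.1% in control nuclei.

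Levels were also set against the number of cycling markers, and in the DNp63cKO library they followed it. In DNp63cKO nuclei with 0, 1, 2 and 3 to 5 markers the basal list had 2024, 2240, 3401 and 3793 CPM, and the uroplakin list 11845, 10906, 7413 and 5259 CPM. Krt5 had 126, 168, 442 and 470 CPM in the same nuclei, with its largest step between 1 and 2 markers. Control nuclei with the same numbers had 2516, 2528, 2642 and 2822 CPM of the basal list and 10447, 11004, 9411 and 9224 CPM of the uroplakin list, without a steady order for the latter. Their Krt5 levels were 135, 162, 149 and 232 CPM.

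Between the libraries, the basal keratins Krt14 and Krt5 were higher in cycling DNp63cKO nuclei. Krt14 was higher in DNp63cKO than in control cycling nuclei by a log2 ratio of 2.50, and by 2.59 in non-cycling nuclei, so the difference was of like size in both kinds of nuclei. Krt5 was higher in cycling DNp63cKO nuclei by 1.23 and level in non-cycling nuclei (−0.06). The Krt5 value in cycling nuclei ranged from 0.65 to 1.72 over the processing alternatives, and that of Krt14 from 1.86 to 2.82. Of 13 basal genes 4 were past 1.5-fold higher and 1 lower in cycling DNp63cKO nuclei, against 12.7% of all 7265 genes higher and 14.7% lower. In non-cycling nuclei 1 of 15 was higher and 5 lower, against 5.86% and 5.55% of 12997 genes. Itga6 was the lower basal gene of the cycling nuclei, with a log2 ratio of −0.96, and was also lower in non-cycling nuclei (−1.27).

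The uroplakin difference between the libraries was not stable. On summed UMIs 2 of 5 uroplakin genes were past 1.5-fold lower in cycling DNp63cKO nuclei, beside 14.7% of all genes. The list had a log2 ratio of −0.54 (−0.63 to −0.44). It was −0.035 with nuclei thinned to 700 UMIs and the rule applied anew, −0.014 with members kept, and −0.078 when each nucleus counted equally. In non-cycling nuclei the list had a log2 ratio of 0.14.

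Mitotic genes were higher in the cycling nuclei of both libraries. These lists share their biology with the genes of the rule, so their direction is given as a description. Over all genes 15.4% were past 1.5-fold higher in the DNp63cKO library and 8.14% in the control library. Of 15 tested genes of mitotic entry 15 were past 1.5-fold higher in cycling DNp63cKO nuclei, with a median log2 ratio of 2.83, and 17 of 17 in the control library, with 2.41. Genes of the kinetochore (21 of 21, median 2.44, and 22 of 23, median 2.25), the spindle (17 of 17 and 19 of 19), chromosome structure (14 of 14 and 15 of 15) and cytokinesis (12 of 12 and 13 of 13) gave the same result. Genes of mitotic exit were higher in 8 of 10 and 7 of 10.

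Kifc1, a minus-end-directed kinesin of the spindle, had 158 CPM in cycling and 6.46 CPM in non-cycling DNp63cKO nuclei, and 164 and 17.2 CPM in control nuclei. Prc1, which bundles microtubules in the central spindle, had 266 and 14.4 CPM, and 190 and 20.7 CPM. Plk1, a kinase of mitotic entry, had 102 and 7.18 CPM, and 114 and 5.17 CPM. Cdc20, an activator of the anaphase-promoting complex, had 138 and 10.8 CPM, and 140 and 10.1 CPM, and Kif4, a chromosome-associated kinesin, 112 and 5.02 CPM, and 59.5 and 4.46 CPM. The other genes with the highest mean ratio over both libraries were Ccnb1, Tpx2, Cenpe, Knl1, Kif14, Cenpa and Fam83d, all with known parts in mitosis.

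Genes of late cell cycle are known to be switched by a complex that binds the cell cycle genes homology region (CHR), often together with CCAAT boxes bound by NF-Y. Promoters to show were chosen among genes of the mitosis lists, without covering every chromosome. Those of the 4 genes with the highest mean ratio among genes that hold both motifs are given. The motifs were thus a condition of the choice, and their presence in these 4 is not a result. By mean ratio the 4 genes rank 1, 2, 7 and 9 among the named genes, and those ranked between them were passed over. Each is 280 bases from RefSeq on build GRCm38.p6, from 250 bases before to 30 after a transcription start, printed 5′ to 3′ on the gene's strand. Capitals mark the CHR (TTTGAA or TTCGAA) and the CCAAT motif, on either strand, and the motifs do not overlap. They lie at chr17:33890604-33890883 on the minus strand for Kifc1, chr7:80294201-80294480 on the plus strand for Prc1, chr4:118437314-118437593 on the minus strand for Cdc20 and chrX:100625815-100626094 on the plus strand for Kif4.
Kifc1: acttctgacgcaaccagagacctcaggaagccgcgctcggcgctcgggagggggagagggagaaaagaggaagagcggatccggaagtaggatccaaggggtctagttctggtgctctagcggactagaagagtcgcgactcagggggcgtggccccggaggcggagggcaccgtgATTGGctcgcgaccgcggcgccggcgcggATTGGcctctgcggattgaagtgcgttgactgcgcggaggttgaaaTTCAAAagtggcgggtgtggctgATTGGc
Prc1: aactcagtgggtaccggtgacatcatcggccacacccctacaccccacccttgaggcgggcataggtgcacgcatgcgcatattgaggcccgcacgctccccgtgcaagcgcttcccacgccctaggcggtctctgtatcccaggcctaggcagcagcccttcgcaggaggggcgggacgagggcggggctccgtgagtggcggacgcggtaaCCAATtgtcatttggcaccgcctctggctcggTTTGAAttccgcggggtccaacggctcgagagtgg
Cdc20: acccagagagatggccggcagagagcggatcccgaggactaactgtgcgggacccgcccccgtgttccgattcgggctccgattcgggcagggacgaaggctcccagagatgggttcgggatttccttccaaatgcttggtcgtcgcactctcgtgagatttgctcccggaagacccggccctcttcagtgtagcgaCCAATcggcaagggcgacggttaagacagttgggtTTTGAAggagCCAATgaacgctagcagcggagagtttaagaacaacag
Kif4: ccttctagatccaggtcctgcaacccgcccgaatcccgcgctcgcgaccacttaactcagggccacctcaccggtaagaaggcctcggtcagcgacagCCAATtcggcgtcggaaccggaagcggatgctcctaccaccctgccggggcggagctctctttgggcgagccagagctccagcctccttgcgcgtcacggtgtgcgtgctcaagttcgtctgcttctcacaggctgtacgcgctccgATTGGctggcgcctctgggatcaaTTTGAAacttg

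Of 97 genes in the 6 mitosis lists, 81 had a promoter in the table. The CHR letters were found in 46 of these (56.8%), the CCAAT letters in 52 (64.2%) and both in 37 (45.7%). Over all 27025 promoters of that length the shares were 18.6%, 36.6% and 7.07%. All 5 genes of the cycling rule held both. Of 32 replication genes with a promoter 65.6% held CCAAT and 18.8% the CHR letters. Of the basal genes 9 were matched, with 0 holding the CHR letters and 1 CCAAT, and of the uroplakins 4, with 0 and 1. A match of letters is not a bound site.

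DNA replication genes were higher in the cycling nuclei of both libraries. None of them is in the rule, but they belong to the same cell cycle as its genes. Their direction is therefore also given as a description. The DNp63cKO library had 34 of 39 past 1.5-fold higher and 0 lower (median log2 ratio 1.06), with sums of 4065 against 1556 CPM. The control library had 28 of 40 higher and 1 lower (median 0.79), with sums of 3178 against 1649 CPM. Over all genes 15.4% were higher and 18.5% lower in the DNp63cKO library, and 8.14% and 10.8% in the control library. Without thinning, at least 1 replication UMI was present in 92.4% and 94.6% of cycling nuclei. In non-cycling nuclei, which had fewer UMIs at the median, the shares were 78.0% and 79.5%. Pcna, the sliding clamp of DNA polymerases, had 306 against 75.3 CPM in the DNp63cKO library and 145 against 82.2 CPM in the control library. Rrm2, a subunit of ribonucleotide reductase, had 235 against 29.4 CPM and 114 against 30.8 CPM. Mcm2, Mcm3 and Mcm5, subunits of the replicative helicase, had log2 ratios of 0.90, 0.83 and 1.05 in the DNp63cKO library and 1.08, 0.80 and 1.29 in the control library. Mcm7, of the same helicase, had 1.81 and 0.58.

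Genes of the step from G1 to S were less uniform. Of 19 in DNp63cKO nuclei 12 were past 1.5-fold higher and 1 lower (median 0.87), beside 15.4% and 18.5% of all genes. Of 20 in control nuclei 9 were higher and 1 lower (median 0.46), beside 8.14% and 10.8% of all genes. Ccne1, which encodes cyclin E1, had 66.4 against 8.61 CPM and 40.5 against 11.7 CPM. Ccnd2, which encodes cyclin D2, had 746 against 445 CPM and 1078 against 958 CPM. Cdk4, the kinase of cyclin D, had 194 against 104 CPM and 90.5 against 92.3 CPM. Of genes that restrain the cycle, Cdkn1a (p21) had 112 against 182 CPM and 207 against 250 CPM, while Cdkn2c (p18) had 30.6 against 5.74 CPM and 35.7 against 5.87 CPM. DNA repair genes were higher in 16 of 17 and 18 of 19.

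**Figure D5:**
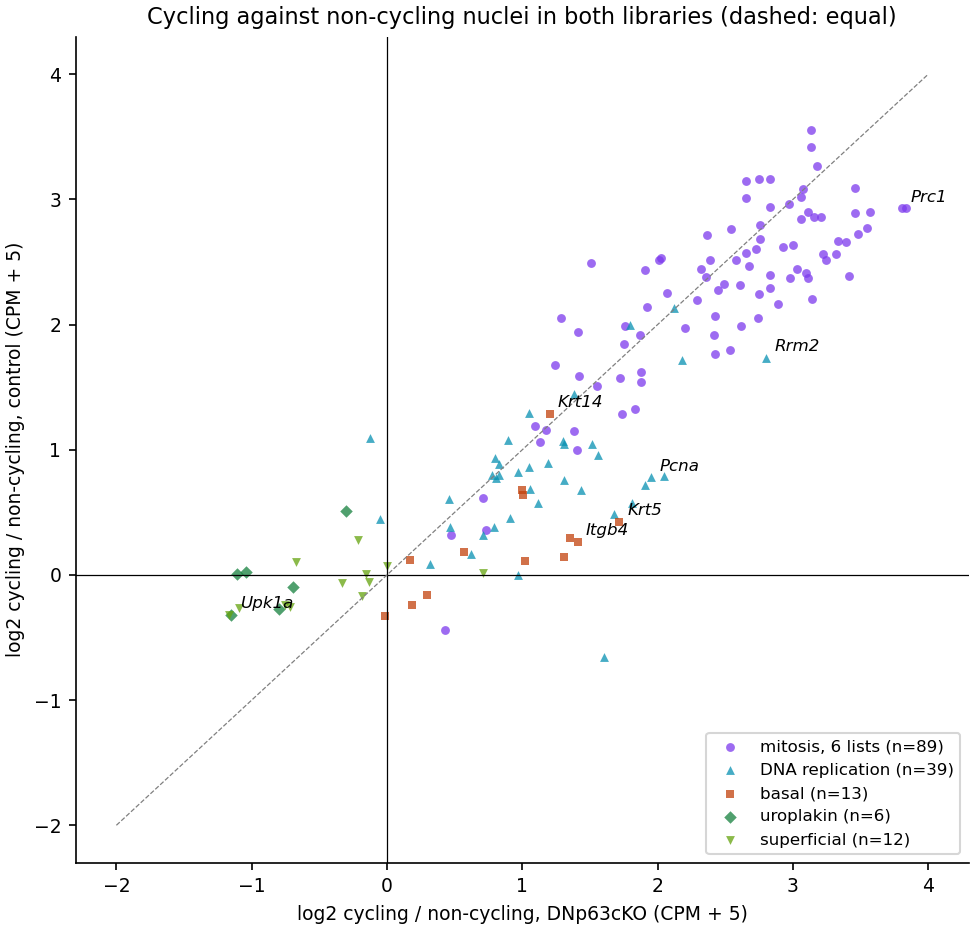
Log2 ratio of CPM plus 5 in cycling over non-cycling urothelium, with the DNp63cKO library on one axis and the control library on the other, one point per listed gene, coloured by list. Mitotic genes lie high in both, and uroplakin genes lie below 0 in the DNp63cKO library and near 0 in the control library on summed UMIs.

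Shh, the ligand by which the ureteric epithelium signals to the surrounding mesenchyme, had 107 CPM (21 UMIs) in cycling and 48.1 CPM in non-cycling nuclei of the DNp63cKO library, and 112 CPM (47 UMIs) and 152 CPM in the control library. The value that stood apart was that of non-cycling DNp63cKO nuclei. At 700 UMIs it was found in 10.8% and 3.05% of nuclei, and in 8.25% and 9.91%. Between the libraries its log2 ratio was −0.06 in cycling and −1.56 in non-cycling nuclei.

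Of the pathway lists, those of Notch, p63 targets and desmosomes had more genes lower than higher in cycling DNp63cKO nuclei, while those of hedgehog (0 higher and 0 lower of 4), Wnt (0 and 1 of 4) and growth signals (2 and 2 of 14) did not stand out. Over all genes 12.7% were past 1.5-fold higher and 14.7% lower in cycling nuclei, and 5.86% and 5.55% in non-cycling nuclei. Of 7 tested Notch pathway genes 4 were past 1.5-fold lower in cycling DNp63cKO nuclei and 0 higher (median −0.84 on the log2 scale), and in non-cycling nuclei 4 of 7 were lower and 1 higher (median −0.86). The summed level of the Notch list was close in the libraries, at 1083 and 1100 CPM in cycling nuclei, a log2 ratio of −0.02 (−0.26 to 0.22), so its median and its sum differ. The cycling median was −0.07 under one of the alternatives and −0.95 under another. Notch1, a receptor, had 56.2 CPM in DNp63cKO and 124 CPM in control cycling nuclei, and Nrarp, a feedback target of the pathway, 25.5 CPM (5 UMIs) and 100 CPM (42 UMIs). Of 10 tested genes known as targets of p63, 5 were lower and 0 higher in cycling nuclei (median −0.35), and 8 of 13 were lower in non-cycling nuclei (median −0.62). That list leaves out Krt5 and Krt14, which were counted as basal genes. Both were higher in cycling DNp63cKO nuclei, with log2 ratios of 1.23 and 2.50, so the count of 0 higher depends on how the lists were drawn. The lists of p63 targets and desmosomes also share genes and are not separate results. Sfn (14-3-3σ), one of them, had 684 and 1185 CPM in cycling nuclei, and Dsp, which encodes desmoplakin, 291 and 497 CPM. Of 9 desmosome genes 3 were lower and 0 higher. Their median of −0.42 ranged from −0.57 to 0.05.

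Genes named by size of the difference between the libraries were few in UMIs. Among 5451 genes with at least 50 CPM in cycling nuclei of either library and 30 UMIs over both, those highest in DNp63cKO after Krt14 were Nid1 (nidogen, 169 and 30.9 CPM), Gsdmc2 (363 and 73.8 CPM), Gsdmc3 (158 and 33.3 CPM), Sema3e (a semaphorin, 214 and 50 CPM), Meg3, Hspg2, Ptn, Dkc1, Pltp, Efemp1 and Frem2. Nid1, Meg3, Hspg2 and Ptn had 203, 2107, 227 and 197 CPM in mesenchymal nuclei of the same library. The part of free RNA in their values was not tested beyond the subtraction run as an alternative. Gsdmc2 and Gsdmc3 are near-identical neighbours of a gene family between which reads may be split, and both had higher log2 ratios in non-cycling nuclei (2.47 and 2.34) than in cycling nuclei (2.22 and 2.09). Pltp, a phospholipid transfer protein, differed in cycling nuclei (1.71) with 0.05 in non-cycling nuclei, on 22 and 13 UMIs.

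Lowest in cycling DNp63cKO nuclei was Chst2, a sulfotransferase, with 0 UMIs against 57 UMIs (136 CPM) in 19 control nuclei. With the DNp63cKO sum set at a floor of 3 counts it was 8.86-fold lower, a value that takes the control count as exact. The counting interval of its log2 ratio reaches up to −2.80. Chst2 was also lower in non-cycling nuclei (10.8 against 80.8 CPM). Ksr2 (1 and 42 UMIs) and Tmem248 (2 and 37 UMIs) came next. Pla2r1, a phospholipase A2 receptor, had 25.5 and 179 CPM, and Psapl1 15.3 and 105 CPM. The rest were Paqr3, Gemin5, Ankfn1, Endod1, Cmas, Wiz and Tcp11.

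Among 3455 genes with at least 50 CPM in both libraries, the lowest in cycling against non-cycling nuclei by the mean of both included Fmo5, a flavin monooxygenase. It had 373 against 1508 CPM in the DNp63cKO library and 1074 against 1689 CPM in the control library, where 49 of the 451 UMIs of cycling nuclei lay in 1 nucleus. Its control log2 ratio was −0.65. Kdm7a, a histone demethylase, had 40.9 against 144 CPM and 50 against 123 CPM. Others were Ksr2, Usb1, Fam189a2, Bglap3, Secisbp2, Mtm1, Rmst, Stx11 and Paqr6, with 1 to 16 UMIs in the cycling nuclei of the DNp63cKO library and 13 to 50 in those of the control library. Bglap3 has near-identical relatives and its counts are uncertain.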

How the data were processed

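Nuclei of newborn ureters were profiled in 1 library per group. The authors deposited a matrix of UMI counts per gene and barcode for each library, raw and not normalized, in which the smallest nucleus has 500 UMIs. The submitters' processing notes list, without saying what each was used for, Seurat 4.0.5, R 4.0.5, STAR 2.7.11a with STARsolo and the build mm10; whether counting used strand is not given in the sources used here.

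Nuclei under 300 genes or above 5% mitochondrial UMIs were dropped, and the rule of the opening was applied to them. Counts were summed over the nuclei of a class and given as CPM. Ratios of single genes are log2 of CPM plus 5, while their intervals, and the ratios of summed lists, are on CPM alone. A gene counted as past the threshold at 1.5-fold with at least 20 UMIs over both sums. Mesenchymal reference nuclei had at least 3 mesenchymal markers and at most 1 epithelial one. Depth was equalised by drawing 700 UMIs per nucleus and leaving out shallower nuclei. For the alternative with free RNA subtracted, uroplakin UMIs of mesenchymal nuclei, relative to those of all kept nuclei, gave the free share of each library. That share of the profile of all kept nuclei was then subtracted. Scrublet (in scanpy 1.11.5) called 0 doublets in either library with its automatic threshold and so did not work. The top 5% of its scores (303 and 451 nuclei, of which 2 and 6 were cycling urothelium) were left out as an alternative only.

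Genes named by size were the 12 highest and 12 lowest with at least 50 CPM and 30 UMIs between the libraries, and the 12 highest and lowest by the mean ratio of both libraries, without rule, mitochondrial, haemoglobin, Xist and Y-linked genes and unnamed gene models; some genes of these lists are not reported here. The members and gene lists were chosen with earlier results of these data known. Promoters were matched by symbol to RefSeq starts of GRCm38.p6, the first listed per gene. Python 3.11.15, numpy 2.4.6, scipy 1.17.1, pandas 2.3.3 and matplotlib 3.10.9 were used, and the ratio code was tested on simulated data.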

Additional observations from a re-analysis of the deposited data

Results flagged for a closer look

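Several genes and lists had a ratio of DNp63cKO to control that went one way in cycling and the other way in non-cycling urothelium, with intervals of counting error on opposite sides of 0. With 1 library per group this difference was not tested, and 1 library decides each value. Among basal genes Itgb4 had a log2 ratio of 0.76 in cycling and −0.39 in non-cycling nuclei, and the basal list had 0.39 and −0.28. Mcm7, a subunit of the replicative helicase, had 0.78 and −0.45, the replication list 0.36 and −0.084 and the list of chromosome structure 0.19 and −0.14.

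Uroplakin genes went the other way. Upk1a had −0.51 and 0.32, Upk2 −0.53 and 0.54, Upk3a −0.44 and 0.091 and Upk3b −0.76 and 0.35, and the uroplakin list −0.54 and 0.14. Snx31 had −0.43 and 0.42 and Psca −0.31 and 0.46. The cycling value of the uroplakin list was −0.31 without the deepest 5% of cycling nuclei and −0.014 with members kept and values thinned to 700 UMIs. Genes of the nephric duct, from which the ureteric bud arises, summed to −0.25 and 0.078.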

How the results depend on the processing

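No paired analysis was possible because each group has 1 library. No replicate could be left out for the same reason. Depth limits most single genes, since many named genes have under 50 UMIs in the cycling nuclei of a library. The by-depth split, leaving out the deepest 5% of cycling nuclei, allowing up to 3 markers of other cells, and thinning with members kept by the original rule were chosen after seeing the data. Of the alternative values for the cycling shares, and for the basal and uroplakin sums within each library and between the libraries in cycling nuclei, 47 stayed within the counting interval of the reported value and 51 moved beyond it. None of these sums changed sign, but the order of the shares flipped in nuclei with a Y-linked and no Xist UMI. For other lists and genes 3965 stayed, 1077 moved and 28 changed direction. The cause was not tested except where named.

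The cycling share was 4.38% (DNp63cKO) and 3.38% (control) with 3 or more cycling markers, 28.2% and 24.1% with 1 or more, 5.45% and 3.94% after thinning, 12.9% and 8.62% with up to 3 excluded markers, and 12.3% in control nuclei with a Y-linked and no Xist UMI.

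The basal log2 ratio of cycling to non-cycling nuclei in the DNp63cKO library was 0.46 with 1 or more cycling markers, 0.46 with no excluded marker, 0.92 with free RNA subtracted, 0.64 with median-of-ratios scaling, 0.66 with up to 3 excluded markers and 0.66 with members kept and values thinned. In the control library it was 0.21 with a reference matched on depth and 0.21 without the deepest 5%. Between the libraries in cycling nuclei the basal list was at 0.10 with 1 or more cycling markers, 0.11 with no excluded marker, 0.14 with up to 3, 0.56 with free RNA subtracted and 0.64 in Y-linked nuclei.

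The uroplakin ratio of cycling to non-cycling nuclei stayed below 0 in both libraries under each alternative run. In the DNp63cKO library it was −1.11 with 3 or more cycling markers, −0.38 with 1 or more, −1.19 thinned, −0.46 with no excluded marker, −0.53 with up to 3, −1.10 with free RNA subtracted, −0.59 in Y-linked nuclei, −1.01 with median-of-ratios scaling, −0.95 matched on depth and −0.99 without the deepest 5%. In the control library it was −0.0011 with 1 or more cycling markers, −0.80 thinned, −0.46 with members kept and values thinned, −0.61 in Y-linked nuclei, −0.39 as a mean over nuclei, −0.39 matched on depth, −0.54 without the deepest 5% and −0.37 with up to 3 excluded markers. Between the libraries in cycling nuclei it was −0.81 with 3 or more cycling markers, −0.20 with 1 or more, −0.035 thinned, −0.014 with members kept and values thinned, −0.085 with no excluded marker, −0.12 with up to 3, −0.65 with free RNA subtracted, −0.021 in Y-linked nuclei, −0.64 with median-of-ratios scaling, −0.078 as a mean over nuclei and −0.31 without the deepest 5%.

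Values that changed direction were as follows. In Y-linked nuclei the uroplakin list between libraries in non-cycling nuclei was −0.050. There, within the DNp63cKO library, the hedgehog list was −0.15, the erythroid list 1.02, Grhl3 0.24, Efemp1 −0.39, Ankfn1 0.42 and Psca 0.22, and Kdm7a was 0.43 and Chst2 −0.13 within the control library. Between libraries in cycling Y-linked nuclei Grhl3 was 0.37, Upk3b 0.45 and Krt20 0.26. With 1 or more cycling markers Pla2r1 was 0.21, Pparg 0.014 and Stx11 0.037 within the DNp63cKO library and Bglap3 0.0029 within the control library. With no excluded marker Pdpn was −0.26 and Psca 0.18 within the DNp63cKO library. Thinned, Cd44 was −0.012 and Hspg2 −0.049 within the DNp63cKO library, Chst2 −3.31 and Wiz −0.11 within the control library, and Upk3b 0.36 between libraries. With members kept and values thinned Hspg2 was −0.023, Chst2 −0.51 and Upk3b 0.026. Without the deepest 5% Chst2 was −0.17 within the control library, and with up to 3 excluded markers Tcp11 was 0.0029 between libraries.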
